A study of Drosophila melanogaster with 6 samples.

Results

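Neuropeptide and peptide hormone genes encode the precursors from which cells cut short signalling peptides. The 37 genes described here were listed by gene name, with no threshold on their values but with earlier results of these data known, as precursor genes of the fly with known roles in feeding, metabolism, water balance, ecdysis and the clock. Of the 37 genes, 36 were matched to a row among the 17489 genes of each count file, and 28 had enough counts to be among the 11915 genes tested for diet. *Nplp2*, a neuropeptide-like precursor gene, was not matched and has no value here.

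Precursors are cleaved by convertases, often amidated at the C-terminus, stored in dense core vesicles and released to act on receptors, mostly G protein-coupled ones, on nearby cells or across the body. In the fly, insulin-like peptides from the median brain neurons and the adipokinetic hormone from the corpora cardiaca act in opposite directions on stored sugar and fat, while peptides such as sNPF, NPF and AstA act on feeding. Several of these genes are used in more than 1 tissue, with peptide-producing cells in the brain, the gut and the fat body, the fly's liver-like storage tissue.

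All samples were of male flies of 1 genotype, *Gr5a>UAS-Rpl3-3XFLAG*, in which the *Gr5a* driver, active in the sweet-sensing neurons of the mouthparts and legs, makes a FLAG-tagged ribosomal protein. The tag allows translating mRNA affinity purification (TRAP), in which ribosomes of the *Gr5a+* cells are pulled down from head lysate and their mRNAs sequenced. The flies ate a control diet of 5% sucrose (CD + OSMI) or a sugar diet of 30% sucrose (SD + OSMI) from day 5 to day 12, in vials of 35. Both diets carried 10 µM OSMI-1, an inhibitor of the sugar-sensing enzyme O-GlcNAc transferase (OGT), in 10% DMSO, so the contrast is that of the diets with OGT inhibited in every sample. Each diet had 3 libraries of 300 heads each, called biological replicates by the labels and with the numbers 1 to 3 (CD + OSMI) and 4 to 6 (SD + OSMI). Input libraries and diets without OSMI were not analysed here.

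The libraries held 13324513 to 16122009 counts. Values are CPM (counts scaled to library size, with TMM factors) and their errors are SDs over 3 libraries. A positive log2 fold change means higher on SD + OSMI, and its error is the SE. A differentially expressed gene (DEG) had an edgeR adjusted p under 0.1. The order of genes by level is given only as CPM per kb of exon. Because the pulled-down RNA is a bulk sample, fewer cells that make a peptide and less of its mRNA per cell cannot be told apart.

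Markers of the labelled cells were low beside those of other cells of the head. *Gr5a* itself was at 0.663 CPM per kb (mean of 6 libraries), against 40.3 for the pan-neuronal gene *elav* and 12078 for *ninaE*, the rhodopsin of the outer photoreceptors. Such levels do not measure enrichment by the pull-down. The authors reported *Gr5a*, *Gr64f* and *Gr64a* as enriched over the input, which was not analysed here. The summed level of 9 sweet receptor genes was 2.68 to 5.75 CPM on CD + OSMI and 3.09 to 5.19 CPM on SD + OSMI. Of the 9, 4 had no count in any library. These were *Gr64b* and *Gr64c*, which have the same annotated span, and *Gr64d* and *Gr64e*, whose spans overlap. Reads shared by overlapping genes may have been dropped in counting, so these genes without counts may still be expressed and the sum may be too low. Fat body markers summed to 9908 to 12128 CPM on CD + OSMI and 7115 to 8710 CPM on SD + OSMI, and 8 of the 11 tested were lower DEGs. Testis markers summed to 1184 to 1800 CPM and 2158 to 3553 CPM, with 11 of 26 higher DEGs, and of the 16 tested accessory gland markers 12 were higher DEGs. Gut markers overlapped between diets (411 to 693 CPM and 492 to 867 CPM), with 1 lower DEG of 13 and no count for *gammaTry* and *deltaTry*. The sums of 10 general neuron markers also overlapped, at 10281 to 11187 CPM and 8410 to 10556 CPM.

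The 36 matched genes together made up 575 CPM on average, and most of that came from a few of them. As shares of this sum, which is not corrected for gene length, *Nplp3* alone held 29.3% of the sum, *ITP* 18.9%, *sNPF* 11.7% and *CCHa2* 8.25%. The sum was 672, 588 and 602 CPM in CD + OSMI 1 to 3 and 547, 515 and 527 CPM in SD + OSMI 4 to 6. Every library on the sugar diet was thus below every library on the control diet. Without the 3 DEGs described below, the sum was 384, 352 and 353 CPM on CD + OSMI and 354, 324 and 339 CPM on SD + OSMI, and the diets overlapped.

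**Figure D1:**
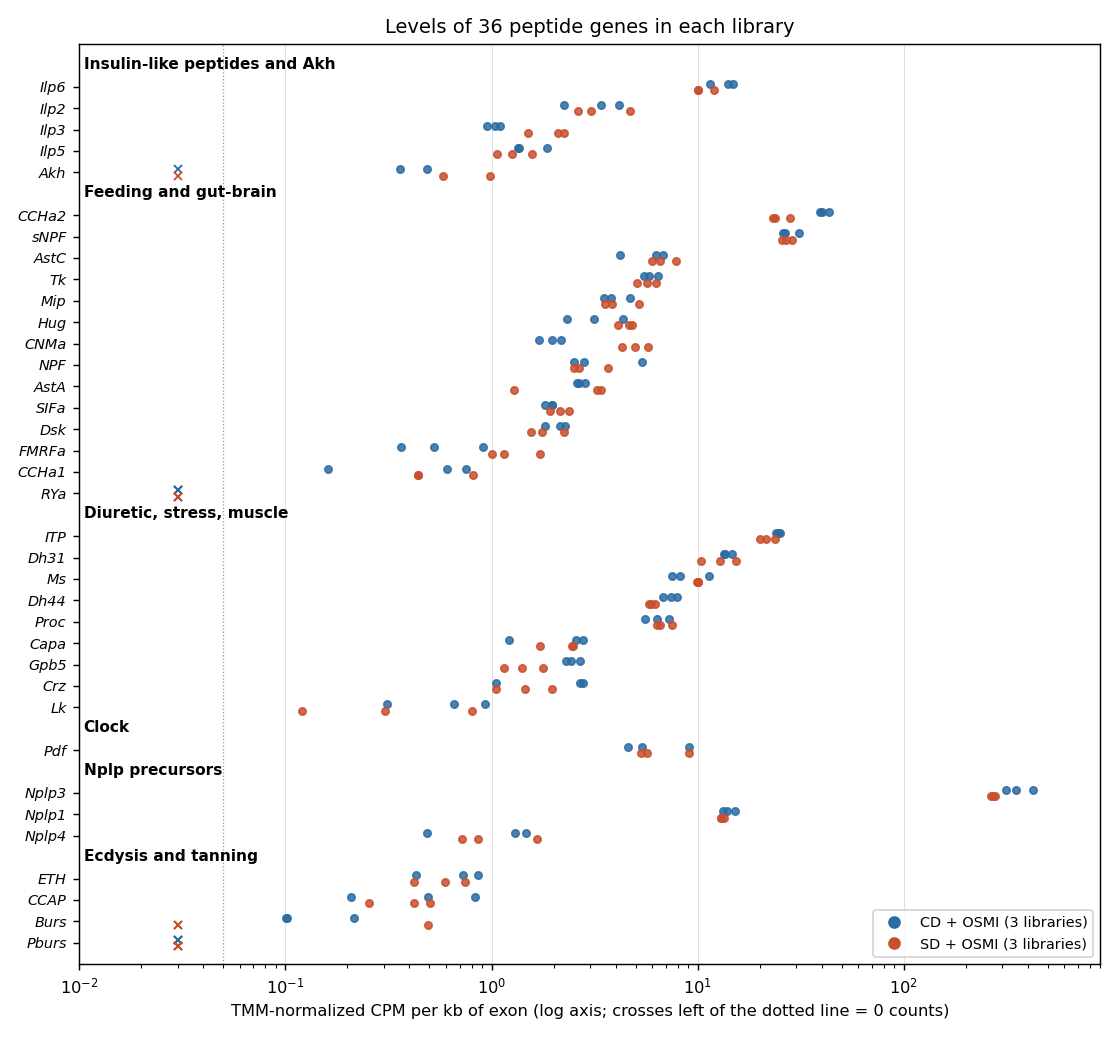
Level of each of the 36 matched peptide genes, grouped by role, in TMM-normalized CPM per kb of exon on a log axis, with 1 point per library (3 per diet, colored by diet). Crosses at the left edge stand for libraries with 0 counts; *Nplp3* lies at 316 CPM per kb on average, far to the right of the others, and the ecdysis genes lie at the left.

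Per kb of exon, *Nplp3* was the highest peptide gene at 316 ± 61.1 CPM per kb (SD over 6 libraries), above 98.9% of all tested genes. *CCHa2* followed at 32.9 ± 9.01, *sNPF* at 27.5 ± 1.98 and *ITP* at 23.1 ± 1.99 CPM per kb. *Nplp1* (13.6 ± 0.874), *Dh31* (13.4 ± 1.72), *Ilp6* (12.1 ± 2.00) and *Ms* (9.50 ± 1.38 CPM per kb) came next. In this order, *Nplp3* and *CCHa2*, *sNPF* and *ITP*, and *ITP* and *Nplp1* were the only neighbors among these 8 genes whose ranges over the 6 libraries did not overlap. *CCHa2* and *sNPF* changed places between the diets, with *CCHa2* at rank 2 on CD + OSMI and rank 3 on SD + OSMI. *CNMa* stood at rank 23 of the 36 genes on CD + OSMI and at rank 14 on SD + OSMI.

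The diets were then compared for each gene to ask which peptide precursors differ after 7 days of sugar. *CNMa* was higher on the sugar diet by 2.57-fold, *CCHa2* was lower at 60.9% of its control diet level, and *Nplp3* was lower at 74.8%. The other 25 tested genes did not pass the threshold. The 3 DEGs are 10.7% of the 28 tested, against 9.09% of all 11915 tested genes. By direction, 1 of 28 was higher against 6.91% of all genes, and 2 of 28 were lower against 2.18%. Both shares moved with the libraries used. Without SD + OSMI 4, 4 of the 28 were DEGs, beside 1644 higher and 803 lower over all genes. Without CD + OSMI 2, CD + OSMI 3, SD + OSMI 5 or SD + OSMI 6, 2 or 3 of the 28 were, beside 45 to 159 higher and 37 to 77 lower over all genes. The median log2 fold change was −0.03 over the 28 genes and −0.0027 over all tested genes, with 15 of the 28 below 0 against 50.4% of all genes.

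**Figure D2:**
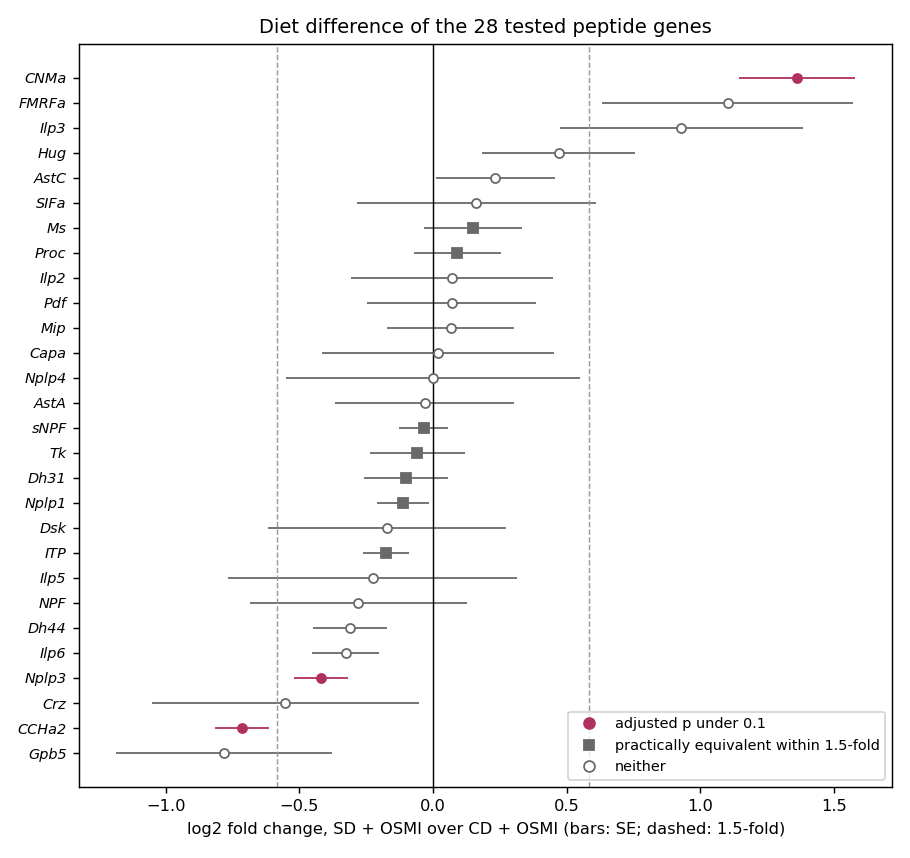
Log2 fold change of the 28 tested peptide genes, SD + OSMI over CD + OSMI, with bars for the SE, dashed lines at 1.5-fold, red symbols for an adjusted p under 0.1 and filled squares for genes practically equivalent within 1.5-fold. *CNMa* lies at 1.36 on the right, *CCHa2* at −0.71 and *Nplp3* at −0.42 lie on the left, and the open circles, which are neither, include most genes with long bars.

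*CNMa* encodes CNMamide, a peptide that in flies is released by gut enterocytes when essential amino acids run short and raises the appetite for them. The gene (FBgn0035282) lies on the minus strand of chromosome arm 3L from 1850915 to 1855591 in BDGP6, with 3 annotated transcripts and 1900 bp of merged exon. It was at 3.74, 4.12 and 3.24 CPM in CD + OSMI 1 to 3 and at 10.9, 8.205 and 9.48 CPM in SD + OSMI 4 to 6. The lowest library on the sugar diet was well above the highest on the control diet, and replicates of a diet lay close together. The means were 3.70 ± 0.438 and 9.53 ± 1.35 CPM (SD, n = 3), the log2 fold change was 1.36 (SE 0.22) and the edgeR adjusted p was 0.00538. For its exon length *CNMa* stood at 1.95 (control diet) and 5.01 CPM per kb (sugar diet), and by its mean over both diets it was above 28.5% of tested genes. Markers of the gut, a known but perhaps not the only source of this peptide, overlapped between the diets in sum (given above). The libraries were made from heads, and which of their cells gave the *CNMa* reads was not measured. Testis and accessory gland markers were higher on SD + OSMI, with 11 of 26 and 12 of 16 tested being higher DEGs. The part of any of these tissues in the *CNMa* difference was not tested.

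*CCHa2* encodes CCHamide-2, a hormone of the gut and fat body that signals the nutritional state to the insulin-producing cells of the brain. The gene (FBgn0038147) lies on the minus strand of arm 3R from 13389059 to 13395197, with 3 transcripts of 4 exons each and 1459 bp of merged exon. Its level was 57.2, 63.1 and 58.7 CPM in CD + OSMI 1 to 3 and 40.7, 34.5 and 33.7 CPM in SD + OSMI 4 to 6. All 3 libraries on the sugar diet were below all 3 on the control diet, and the gap between the nearest libraries was wider than the spread within either diet. The means were 59.6 ± 3.04 and 36.3 ± 3.84 CPM (SD, n = 3), with a log2 fold change of −0.71 (SE 0.10) and an edgeR adjusted p of 0.00258, the smallest among the tested peptide genes. Fat body markers were lower in sum in the same libraries (9908 to 12128 CPM against 7115 to 8710 CPM), but not evenly. Of the 11 tested, 8 were lower DEGs and 0 higher, with a median log2 fold change of −0.39. The log2 fold changes ran from −6.63 (*Lsp2*) to 1.26 (*Fbp1*), with 9 below 0 and 2 above. *Fbp1* had only 58 counts and an SE of 0.75. *Lsd-2* (−0.02) and *Cyp6a2* (0.18), with far more counts, were not DEGs either. *apolpp* alone gave 8191 of the mean 10816 CPM of the control diet sum. The sum of these markers need not follow the amount of fat body, and their part in the *CCHa2* difference was not tested.

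*Nplp3* encodes a neuropeptide-like precursor found by peptide sequencing in the fly. It is a short gene (FBgn0042201, plus strand of 3L, 16318024 to 16318690) with 1 transcript of 2 exons and 538 bp of exon. Its level was 227, 169 and 188 CPM in CD + OSMI 1 to 3 and 142, 149 and 145 CPM in SD + OSMI 4 to 6. The sugar diet libraries were nearly level with each other and all below the control diet ones, among which CD + OSMI 1 stood highest. The means were 195 ± 29.8 and 145 ± 3.47 CPM (SD, n = 3), with a log2 fold change of −0.42 (SE 0.10) and an edgeR adjusted p of 0.0395. The call depended on which libraries were used: the adjusted p was 0.117 without CD + OSMI 3, 0.139 without SD + OSMI 5 and 0.192 without SD + OSMI 6. None of the exons of *CNMa*, *CCHa2* or *Nplp3* overlaps an exon of another annotated gene.

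**Figure D3:**
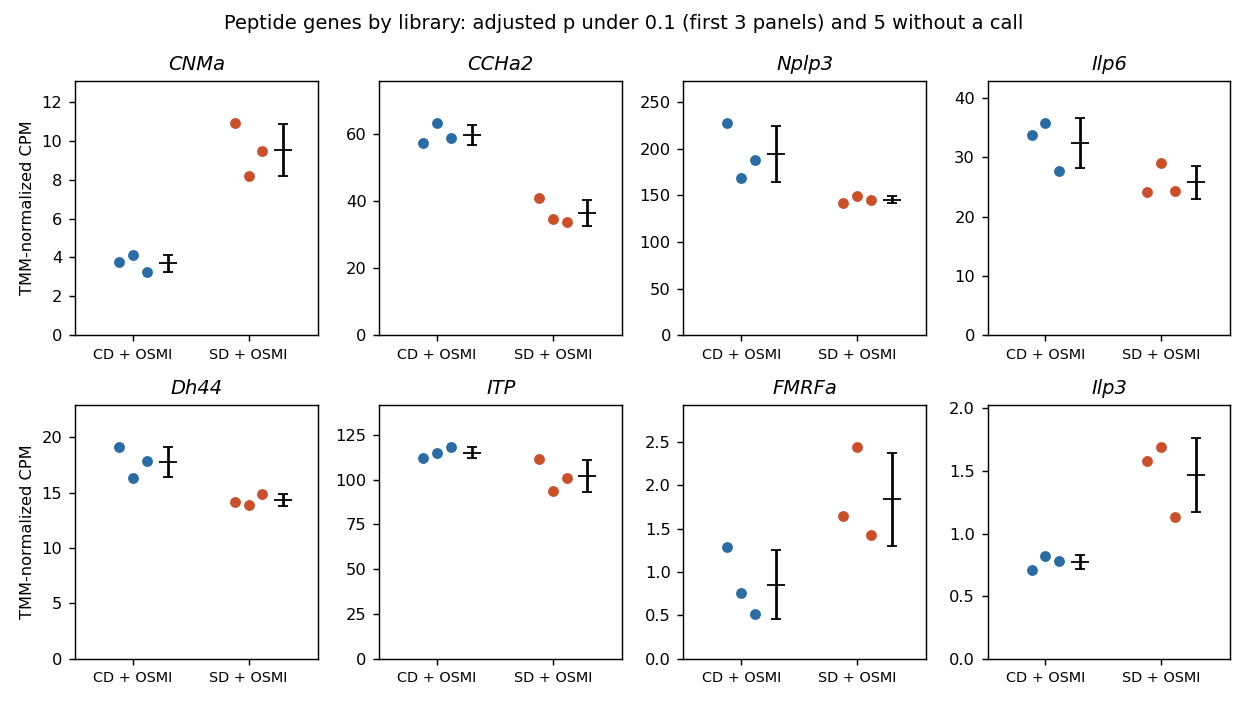
TMM-normalized CPM of 8 peptide genes in each of the 3 CD + OSMI and 3 SD + OSMI libraries (points), with the mean and SD beside them and each vertical axis starting at 0; *Ilp3* was added to the panels after its values were seen. The diets do not overlap for *CNMa*, *CCHa2*, *Nplp3*, *Dh44*, *ITP*, *FMRFa* and *Ilp3*, and they overlap for *Ilp6*.

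Among the 28 tested genes, the diets did not overlap for 8, which is 28.6% against 24.8% of all tested genes. In 3 of them every SD + OSMI library was above every CD + OSMI library (14.5% of all genes) and in 5 every one was below (10.2%). The 5 that were not DEGs were *FMRFa* and *Ilp3* above and *Dh44*, *Gpb5* and *ITP* below. An unadjusted p under 0.05 was reached by 6 of the 28, against 21.4% of all genes, and these were the 3 DEGs with *FMRFa*, *Ilp6* and *Dh44*.

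The insulin-like peptide genes gave no DEG among 4 tested, against 9.09% of all tested genes. *Ilp2*, *Ilp3* and *Ilp5* are made in the insulin-producing cells of the brain and lie within 24200 bp of each other on 3L, and *Ilp6* on X is an IGF-like gene made mainly in the fat body of adults. *Ilp2* was at 1.51 to 2.78 CPM on CD + OSMI and 1.75 to 3.16 CPM on SD + OSMI (log2 fold change 0.07, SE 0.38). *Ilp5* was likewise level within a wide error, at 0.646 to 0.892 and 0.507 to 0.752 CPM (log2 fold change −0.23, SE 0.54). *Ilp3* was at 0.710 to 0.823 CPM on the control diet and 1.13 to 1.69 CPM on the sugar diet, with a log2 fold change of 0.93 (SE 0.45) and an edgeR adjusted p of 0.254 from 102 counts in all. The libraries did not overlap for *Ilp3* and overlapped for its neighbors *Ilp2* and *Ilp5*, and the difference between the genes was not tested.

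*Ilp6*, at 33.8, 35.7 and 27.6 CPM in CD + OSMI 1 to 3 and 24.1, 29.0 and 24.3 CPM in SD + OSMI 4 to 6, was the highest of the insulin-like genes. CD + OSMI 3 lay below SD + OSMI 5, so the diets overlapped. The log2 fold change was −0.33 (SE 0.13), with an unadjusted p of 0.0202 and an edgeR adjusted p of 0.147. As for *CCHa2*, the fat body markers were lower in sum but not evenly in the same libraries, and their part was not tested. *Akh*, the glucagon-like adipokinetic hormone gene, had 19 counts over the 6 libraries, from 0 to 0.527 CPM per library, and was not tested.

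Among the 14 genes of feeding and gut-brain signalling, 12 were tested, with *CNMa* higher and *CCHa2* lower. *sNPF*, the short neuropeptide F gene that promotes feeding, was the highest of the others. It was at 75.6, 63.5 and 65.2 CPM in CD + OSMI 1 to 3 and at 70.4, 63.1 and 65.9 CPM in SD + OSMI 4 to 6. The 2 sets of libraries interleaved, the log2 fold change was −0.04 (SE 0.09), and *sNPF* was practically equivalent between the diets, meaning that a test against a limit of 1.5-fold placed it inside (q = 1.42e-05). *Tk*, the tachykinin gene of brain and gut, was also inside the limit, at 8.92 to 10.5 and 8.205 to 10.2 CPM (log2 fold change −0.06, SE 0.18, q = 0.019).

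*FMRFa*, which encodes FMRFamide-related peptides that act on muscle, was at 1.29, 0.755 and 0.519 CPM in CD + OSMI 1 to 3 and 1.65, 2.44 and 1.43 CPM in SD + OSMI 4 to 6. The diets did not overlap, but CD + OSMI 1 came close to SD + OSMI 6. With 123 counts in all, the log2 fold change was 1.10 (SE 0.47), the unadjusted p 0.0335 and the edgeR adjusted p 0.191. The remaining genes of this group had log2 fold changes of −0.28 (*NPF*, neuropeptide F) to 0.47 (*Hug*, hugin, which reduces feeding), with *AstA* (satiety) at −0.03, *AstC* at 0.23, *Mip* at 0.07, *Dsk* (the cholecystokinin-like drosulfakinin) at −0.17 and *SIFa* at 0.16. None of these had an edgeR adjusted p under 0.373. For *AstA* the spread came from 1 library, SD + OSMI 5 at 1.88 CPM, while the other 5 libraries were at 3.77 to 4.97 CPM. Part of the *SIFa* exon sequence, 21.1%, overlaps *Start1*. *CCHa1* had 42 counts and was not tested, and *RYa* had none.

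The diuretic, stress and muscle peptide genes gave no DEG among 8 tested of 9, against 9.09% of all tested genes. Their median log2 fold change was −0.14, against −0.0027 over all tested genes. *ITP*, the ion transport peptide gene that limits water loss, was at 112, 115 and 118 CPM in CD + OSMI 1 to 3 and 111, 93.8 and 101 CPM in SD + OSMI 4 to 6. Although every sugar diet library was the lower, SD + OSMI 4 was nearly level with CD + OSMI 1. Its log2 fold change was −0.17 (SE 0.09, edgeR adjusted p = 0.259), and *ITP* was practically equivalent within 1.5-fold (q = 0.000261). Without SD + OSMI 4, *ITP* became a lower DEG (log2 fold change −0.23, edgeR adjusted p = 0.0744), still well inside 1.5-fold.

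*Dh44*, a hormone related to corticotropin-releasing factor whose neurons in the fly brain sense nutritive sugar, was at 19.1, 16.3 and 17.8 CPM in CD + OSMI 1 to 3. In SD + OSMI 4 to 6 it was at 14.2, 13.9 and 14.9 CPM. All sugar diet libraries were below all control diet ones, by a small margin. The log2 fold change was −0.31 (SE 0.14), the unadjusted p 0.0418 and the edgeR adjusted p 0.214, so *Dh44* was not a DEG. *Gpb5*, the beta subunit of a glycoprotein hormone, was lower in all 3 sugar diet libraries (1.75 to 2.07 CPM on CD + OSMI and 0.877 to 1.35 CPM on SD + OSMI). Its log2 fold change was −0.78 (SE 0.40), with an edgeR adjusted p of 0.286 from 135 counts.

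Of the other genes of water balance and muscle, 3 were practically equivalent. *Dh31*, the calcitonin-like diuretic hormone, was at 18.9, 17.5 and 17.4 CPM in CD + OSMI 1 to 3 and 19.95, 16.7 and 13.5 CPM in SD + OSMI 4 to 6 (q = 0.0121). Its sugar diet libraries spanned the control diet ones. *Ms*, the myosuppressin gene, was at 13.3, 8.85 and 9.67 CPM in CD + OSMI 1 to 3 and 11.7, 11.8 and 11.8 CPM in SD + OSMI 4 to 6 (q = 0.0386), with the spread lying within the control diet. *Proc*, the proctolin gene, was at 11.0 to 14.3 and 12.5 to 14.8 CPM (q = 0.0108). *Crz* (corazonin, log2 fold change −0.55, SE 0.50) and *Capa* (0.02, SE 0.44) were neither called nor placed inside the limit, and *Lk* (leucokinin) had 30 counts over the 6 libraries, at 0.0753 to 0.584 CPM.

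*Pdf*, the peptide of the clock neurons, was at 3.11 to 6.20 CPM on CD + OSMI and 3.61 to 6.17 CPM on SD + OSMI (log2 fold change 0.07, SE 0.32). Each diet held 1 library near 6 CPM and a pair near or below 4 CPM. Of the *Nplp* precursors other than *Nplp3*, *Nplp1* (the source of amidated peptides such as IPNamide) was at 41.2, 35.95 and 37.6 CPM in CD + OSMI 1 to 3 and 35.0, 34.9 and 36.4 CPM in SD + OSMI 4 to 6. CD + OSMI 2 and SD + OSMI 6 overlapped, the log2 fold change was −0.11 (SE 0.10) and *Nplp1* was practically equivalent (q = 0.000565). *Nplp4* had 52 counts in all, the fewest of any tested member.

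The ecdysis and tanning genes were at the edge of detection. *CCAP* had 51 counts over the 6 libraries, *ETH* (ecdysis triggering hormone) 43 and *Burs* (a bursicon subunit) 9, at 0 to 0.313 CPM per library. *Pburs*, the other bursicon subunit, and *RYa* had 0 of 90555700 counts, which allows a level of up to 0.0331 CPM over the 6 libraries (3 counts, counting error only). Together the 4 ecdysis genes summed to 0.65 to 1.74 CPM on the control diet and 0.63 to 1.503 CPM on the sugar diet. The exons of *ETH* overlap the antisense gene *asRNA:CR43257* over 90.5% of their length and those of *Lk* overlap *asRNA:CR44843* over 93.0%. The strand setting is not known, so reads in these stretches may have been counted for either gene or for neither. The counts of *ETH* and *Lk* may thus be too low or include reads of the partner.

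How firmly a lack of difference can be stated depended on depth. The 14 tested genes with at least 400 counts over the 6 libraries had SEs of 0.09 to 0.24 on the log2 scale, and the 14 with fewer had SEs of 0.29 to 0.55. Practical equivalence within 1.5-fold held for 7 of the 28, or 25%, against 47.1% of all tested genes, and these were *sNPF*, *ITP*, *Nplp1*, *Dh31*, *Ms*, *Proc* and *Tk*, all of the deeper kind. For 18 genes neither a difference nor equivalence was shown at this depth. In 17 of the 28 the fitted log2 fold change was under 0.25 in size.

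**Figure D4:**
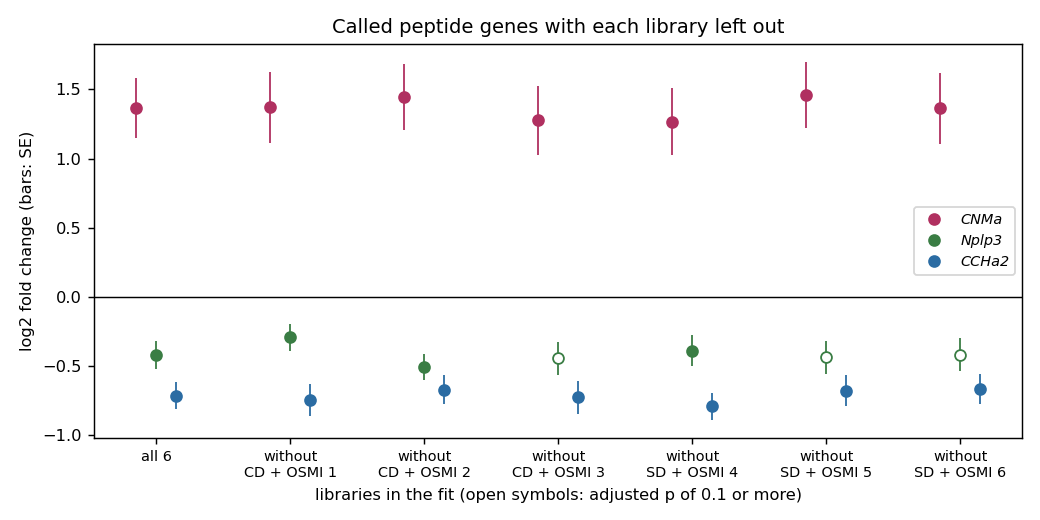
Log2 fold change with its SE for *CNMa*, *Nplp3* and *CCHa2*, fitted with all 6 libraries and with each library left out in turn, with open symbols for an adjusted p of 0.1 or more. *CNMa* stays between 1.27 and 1.46 and *CCHa2* between −0.79 and −0.67 with filled symbols throughout, while *Nplp3* has 3 open symbols.

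The machinery that acts on these precursors was measured beside them. *Phm*, *Pal1* and *sbt* were listed but not matched to a row, so *Pal2* alone stood for amidation. Of 16 tested genes for peptide cleavage, amidation and dense core vesicles, 0 were higher and 2 lower DEGs with edgeR, against 6.91% and 2.18% of all genes, and the median log2 fold change was −0.10. *Cadps*, which primes dense core vesicles for release, was at 444, 452 and 447 CPM in CD + OSMI 1 to 3 and 401, 322 and 342 CPM in SD + OSMI 4 to 6. These values did not overlap (log2 fold change −0.34, SE 0.09, edgeR adjusted p = 0.0605). *Syt7*, a synaptotagmin, fell likewise from 103 to 83.8 CPM on average (log2 fold change −0.30, edgeR adjusted p = 0.0644). Both changes were small enough to be practically equivalent within 1.5-fold as well, as were 14 of the 16, against 47.1% of all tested genes. *amon*, the prohormone convertase, was at −0.17 and *svr*, a carboxypeptidase, at −0.02 on the log2 scale. At an unadjusted p under 0.05, 1 gene was higher (*Ance*, a peptidase, log2 fold change 0.33, edgeR adjusted p = 0.19). DESeq2 and limma-voom also gave 0 higher and 2 lower. The calls depended on the libraries used, with 0 lower without CD + OSMI 2, CD + OSMI 3, SD + OSMI 5 or SD + OSMI 6, 1 without CD + OSMI 1 and 5 without SD + OSMI 4. General neuron markers were also below 0 in 10 of 10, against 50.4% of all genes. Among them *Syt1* was at −0.29 and *Snap25* at −0.29 on the log2 scale. The part of these markers in the *Cadps* and *Syt7* differences was not tested.

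No receptor for these peptides was a DEG among 35 tested with edgeR, DESeq2 or limma-voom, against 9.09% of all genes with edgeR. With RLE factors 1 was lower, with no filter 1, and without SD + OSMI 4 there were 3. The log2 fold changes leaned below 0 in 28 of the 35, against 50.4% of all genes, with a median of −0.16 against −0.0027. Of the 35 receptors, 15 were practically equivalent, against 47.1% of all genes. At an unadjusted p under 0.05, 3 were lower and 0 higher, against 21.4% of all genes in either direction. These were *SPR*, the receptor for sex peptide and *Mip* peptides (log2 fold change −0.30, edgeR adjusted p = 0.116), *AstC-R1* (log2 fold change −0.68, adjusted p = 0.134) and *sNPF-R* (log2 fold change −0.22, adjusted p = 0.191). The same neuron markers had a median of −0.20, with none a DEG with edgeR (2 at an unadjusted p under 0.05, 2 with DESeq2 and 0 with limma-voom). Their part in the receptor values was not tested. The receptors of the 2 peptides whose calls held in every fit did not pass the test either. *CNMaR* was at 11.5 ± 1.77 and 9.01 ± 1.03 CPM (log2 fold change −0.35, SE 0.18, edgeR adjusted p = 0.286), and *CCHa2-R* at 3.17 ± 0.803 and 2.43 ± 0.467 CPM (log2 fold change −0.38, SE 0.33, adjusted p = 0.543). *InR*, the insulin receptor gene, was listed but not matched to a row and has no value here.

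Among 12 matched genes of other peptide hormones, 6 were tested. Of these, 0 were DEGs with edgeR, DESeq2 or limma-voom, against 9.09% of all genes with edgeR. *Ptth*, the prothoracicotropic hormone gene, had an unadjusted p under 0.05 with edgeR. It was at 2.00, 1.51 and 1.36 CPM in CD + OSMI 1 to 3 and 2.98, 2.51 and 3.31 CPM in SD + OSMI 4 to 6. These did not overlap, but the adjusted p was 0.172 (log2 fold change 0.84, SE 0.35). *Lst*, the limostatin gene, which lowers insulin release, was practically equivalent at −0.02.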

How the data were processed

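The authors made libraries from TRAP RNA of *Gr5a+* cells, aligned reads with STAR to BDGP6 and counted them per gene with HTSeq, with SAMtools 1.4 and DESeq2 1.18.0 also named in the submitters' processing notes. The 6 deposited files hold raw counts of 17489 genes, of which 17215 had a symbol and a BDGP6 position. The strand setting and annotation release of the count are not given in the sources used here, and the labels name no sequencing batch. The chi-square per degree of freedom between 2 replicates was 10.4 to 32.8, and p-values measure the spread between these libraries.

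Diets were compared for the genes that reached 10 counts in 3 or more libraries, using edgeR 4.0.16 (quasi-likelihood F test, TMM factors of 0.956 to 1.04, robust fit, Benjamini-Hochberg adjustment over all 11915 genes, common biological coefficient of variation 0.150) in R 4.3.3. The SE is the size of the log2 fold change divided by the square root of F. No tested member passed the filter through 1 diet only. Practical equivalence used log2 fold changes and SEs of DESeq2 1.42.0 against a limit of 1.5-fold at q under 0.05. A level per kb divides CPM by the merged exon length in BDGP6. Alternatives were limma-voom (limma 3.58.1), DESeq2, RLE and upper-quartile factors, other filters and thresholds, leaving out testis and accessory gland genes, and leaving out each library. Python 3.11.15 (matplotlib 3.10.9, numpy 2.4.6, pandas 2.3.3) was used for tables and plots. The tests were checked on simulated counts.

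Members, gene lists and tests were chosen with earlier results of these data known. Values in every library are given for members with an adjusted p under 0.1 or an unadjusted p under 0.05 and for the 8 highest per kb, with ranges for members of at most 30 counts and for others. From each pathway list at most 4 genes with the smallest p and any calls are named, and *Syt1*, *Snap25*, *amon*, *svr*, *CNMaR*, *CCHa2-R* and *Lst* were added after their values were seen. Natalisin, first listed under a symbol that another gene holds, was matched by its own symbol after values were seen. Of 19, 37 and 13 entries for processing, receptors and other hormones, 16, 36 and 12 matched. *Phm*, *Pal1*, *sbt*, *InR* and *Gpa2* did not match. No sequence is printed.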

Additional observations from a re-analysis of the deposited data

How the results depend on the processing

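The calls of *CNMa* (log2 fold change 1.27 to 1.46) and *CCHa2* (−0.79 to −0.67) held in all fits that left out 1 library, with edgeR adjusted p of 0.00508 to 0.0563 and 0.000542 to 0.0292. Those of *CNMa*, *CCHa2* and *Nplp3* held with RLE and upper-quartile factors, no filter, at least 50 counts, DESeq2 and limma-voom. They also held with testis and accessory gland markers left out of the fit. That fit left the counts of these 3 genes unchanged, so it cannot test a part of male tissue in their differences. *Nplp3* ranged from −0.51 to −0.29 when 1 library was left out (adjusted p 0.0324 to 0.192), and *ITP* from −0.23 to −0.12. Lower DEGs among the peptide genes numbered 1 with at least a 1.5-fold change and 1 to 3 when 1 library was left out. Over all genes, 310 were higher and 90 lower at an adjusted p under 0.05, 91 were lower with at least a 1.5-fold change, and leaving out 1 library gave 45 to 1644 higher and 37 to 803 lower. In the processing list 0 were lower at an adjusted p under 0.05 and 0 with at least a 1.5-fold change, and leaving out 1 library gave 0 to 5 lower and 0 to 1 higher. Receptors had 1 lower DEG with RLE factors, 1 with no filter and 0 to 3 when 1 library was left out. Equivalence held for 17 members at 2-fold, 0 at a limit narrower than 1.5-fold and 4 to 6 when 1 library was left out. The same 8 genes were highest per kb without TMM. Over all members and alternatives, 324 fitted log2 fold changes kept their direction and side of the threshold, 25 changed sign, 3 lost the call and 1 gained it. The causes of these shifts were not tested.

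Uncalled log2 fold changes changed sign when 1 library was left out, over −0.21 to 0.28 (*Ilp2*), −0.25 to 0.30 (*AstA*), −0.11 to 0.20 (*Mip*), −0.47 to 0.14 (*NPF*), −0.083 to 0.047 (*sNPF*), −0.14 to 0.020 (*Tk*), −0.27 to 0.23 (*Capa*), −0.23 to 0.029 (*Dh31*), −0.0025 to 0.19 (*Proc*), −0.20 to 0.43 (*Pdf*) and −0.46 to 0.29 (*Nplp4*). *Nplp4* was also at −0.0094 with RLE factors, −0.0072 with upper-quartile factors, −0.0044 with no filter and −0.015 with DESeq2. No paired analysis was possible because replicates are numbered 1 to 3 on one diet and 4 to 6 on the other. With 3 libraries per diet, counts under 400 limit what can be said of 14 of the 28 tested genes.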
